A study of Mus musculus with 20 samples.

Results

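The 421 cells described here were responsive ovarian surface epithelial (OSE) cells, of 589 cells with deposited data, split by whether a read of Esr1, the gene of estrogen receptor alpha, was counted in the cell. Responsive cells were those with label 1 in the deposited division of all cells into 2 clusters (the study's text numbers these clusters the other way round). Of these, 107 had an Esr1 count above 0 and 314 had a count of 0. The Esr1 count chose the groups, so every Esr1 value below is a description without a test. Esr1 was left out of the comparisons of single genes and of genes per cell between these groups. Reads per cell and the deposited values per cell were made with Esr1 included. The OSE forms the outer epithelial covering of the ovary. Primary mouse OSE cells were kept for 48 h in hormone-free medium and then cultured for 15 days with 100 nM 17β-estradiol (E2) or with 0.0002% ethanol, the vehicle (control). The labels and methods name no genetic change in the cells, and the age and number of the donor mice are not given in the sources used here. Capture was on a high-throughput Fluidigm C1 chip, a microfluidic plate in which each of 20 columns gives 1 sequencing library, and the columns were the samples compared. Control cells filled columns 1 to 10 and E2 cells columns 11 to 20, of which column 13 was not analysed here, which left 10 control and 9 E2 libraries. Either suspension entered the chip by a single inlet of its own, so p-values measured only the spread between libraries of that suspension, and a difference between conditions and a difference between suspensions cannot be told apart.

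Estrogen receptor alpha is a ligand-activated transcription factor of the nuclear receptor family. Bound to estradiol it enters chromatin at estrogen response elements, or through other factors such as AP-1, and recruits coactivators or corepressors that set the transcription of its target genes. Esr2 encodes the related receptor beta, and Greb1 and Pgr are widely used examples of direct targets in reproductive tissues. In single-cell libraries a moderately expressed transcript is often missed, so a cell without a read of a gene is not shown to lack its mRNA.

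The responsive cells had 23756 to 248925 reads each, with a median of 143233 in control and 117809 in E2. To equalise depth, the counts of every cell were thinned at random to 20000 reads, fewer than any of the 421 cells had, and summed over the cells with and without an Esr1 read of each library. Levels of single genes by library are given as CPM, the thinned count of a gene scaled by the effective size of its sum. This size is the count of the sum over the genes kept by the filter on low counts, adjusted by TMM scaling. Pooled marker levels and summed marker lists are instead CPM of deposited counts without thinning, scaled by the total count. Only sums of at least 3 cells were used. Control column 1 gave cells without a read to the summed marker lists and to the fit of the change with E2 in such cells. It dropped out of comparisons between the groups because 1 responsive cell there had an Esr1 read. The comparison within libraries therefore used 18 libraries, with 106 cells with a read (3 to 10 per library, median 5) and 295 cells without (11 to 22, median 17). The 40 row barcodes of the chip recur across columns by design and did not mark shared cells. E2 column 15 stood apart from the other E2 columns in several genes, among them Psap, Hes1 and Fos, and the counts of called genes are given with and without it.

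The cluster label was checked against marker genes. Every responsive cell had reads of the epithelial keratin Krt7 (pooled level 1129 CPM against 1103 CPM in the remaining 168 cells), and the mesothelial uroplakin Upk3b and the transcription factor Wt1 stood at 1580 and 606 CPM against 1972 and 701 CPM. Krt19, another simple-epithelium keratin, was at 485 CPM against 19.1 CPM. Krt18 (326 against 763 CPM), the mesothelin gene Msln (30.6 against 366 CPM) and Lrrn4 (84.1 against 186 CPM) were lower in responsive cells, so the OSE markers as a list did not set the responsive cells apart. The collagen gene Col1a2 and the matrix protease gene Mmp2 stood at 11.3 and 1.37 CPM in responsive cells against 2006 and 228 CPM in the others. Dcn (1239 against 1542 CPM) and Col3a1 (628 against 275 CPM), both usually taken as stromal genes, were however abundant in responsive cells as well. Of the same fibroblast-like list, Col1a1 (158 against 85.5 CPM) and Thy1 (97.0 against 7.21 CPM) were higher in responsive cells. Ltbp2, Gpc3, Cyp1b1, Lgals3 and Pdgfra were lower, so the members of this list were mixed. Pecam1, usually an endothelial marker, was at 515 CPM. These genes were among those clustered, so the comparison with the other cells is a description only.

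Esr1 (ENSMUSG00000019768; GRCm38, plus strand of chromosome 10, 4611593 to 5005614) gave at least 1 read in 50 of 203 control responsive cells (24.6%, exact binomial 95% interval 18.9 to 31.2) and in 57 of 218 E2 responsive cells (26.1%, 20.4 to 32.5). Across libraries the share ran from 5.0% to 40% in control (median 25.2%, mean 24.7% ± 11.3 SD, n = 10) and from 12% to 40.9% in E2 (median 28.0%, mean 26.1% ± 9.16 SD, n = 9). The ranges of the 2 conditions overlapped almost entirely. In the 168 cells of the other cluster, 21 had an Esr1 read (12.5%, 7.91 to 18.5). After thinning to 20000 reads, 65 of the 421 responsive cells kept a read (15.4%), 15.8% of control and 15.1% of E2 cells.

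**Figure D1:**
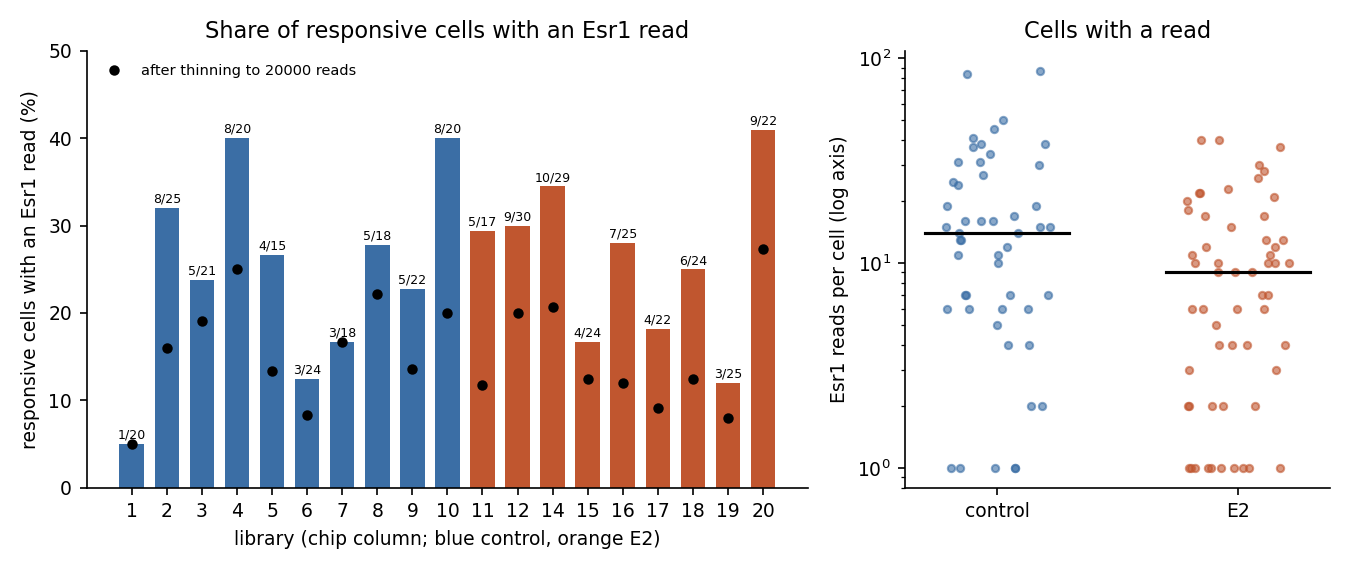
Left, percent of responsive cells with an Esr1 read in each library (bars, deposited counts) and after thinning to 20000 reads (black dots), for the 10 control and 9 E2 columns. Right, Esr1 reads in each of the 50 control and 57 E2 cells that had any, on a log axis, with the median as a line. The bars of the conditions span 5.0% to 40% and 12% to 40.9%, and counts per cell run from 1 to 87 reads in control and from 1 to 40 in E2.

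Among cells with an Esr1 read the count was often more than a single read. In deposited counts, which were deeper in control, the median was 14 reads in control (1 to 87) and 9 reads in E2 (1 to 40). Of the 107 cells, 15 sat just inside the threshold with 1 read, 92 had 2 or more and 58 had 10 or more, whereas the 314 cells just outside it all had 0. Scaled to the reads of the cell, the level in cells with a read had a median of 67.2 CPM in control and 60.3 CPM in E2. Over both conditions the median was 66.9 CPM, from 5.14 to 529 CPM. The share with a read was 20.8%, 20.0%, 32.4% and 28.6% when responsive cells were ordered from fewest to most reads and cut into 4 equal parts. It was thus higher in the 2 parts with deeper cells. In the deposited imputed values, which borrow from similar cells, Esr1 overlapped between the groups. The median imputed log value was 0.656 with a read and 0.553 without in control, and 0.602 and 0.504 in E2, and 17% of control and 17.4% of E2 cells without a read lay above the median of the cells with one.

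Cells with an Esr1 read had more reads and more detected genes than cells without one from the same library. Mean reads per cell in the libraries ran from 128116 to 208761 (median 154184) with a read and from 122862 to 177482 (median 144829) without in control. The groups overlapped, but within libraries the cells with a read had the higher mean in 8 of 9 control libraries, by 16944 ± 17130 reads (SD, n = 9; adjusted p = 0.054, 2-sided exact sign-flip permutation test, Benjamini-Hochberg over 25 tests). In E2 the difference was 16475 ± 15525 reads, higher in 8 of 9 libraries (exact permutation test, adjusted p = 0.033). Over all 18 libraries it was 16709 ± 15861 reads, higher in 16 of 18 (exact permutation test, adjusted p = 0.00238). A cell with more reads is more likely to give a read of any gene, so this measure is not independent of how the groups were made. With 9 libraries the smallest p this test can give is 0.0039.

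At an equal depth of 20000 reads, cells with an Esr1 read at full depth still had more genes with a count. The difference was 122 ± 152 genes in control (higher in 7 of 9 libraries, exact permutation test, adjusted p = 0.106), 159 ± 200 genes in E2 (7 of 9, exact permutation test, adjusted p = 0.089) and 140 ± 173 genes over both (14 of 18, exact permutation test, adjusted p = 0.0118). Only the value over all 18 libraries passed the threshold of 0.05. It did not pass where the groups were set from the same thinned reads, with 67.9 genes over 13 libraries (exact permutation test, adjusted p = 0.57). The same was seen when responsive cells were split by a read of Nr3c1, which encodes the glucocorticoid receptor. Cells with an Nr3c1 read had 160 ± 184 more genes at 20000 reads (15 of 19 libraries, exact permutation test, adjusted p = 0.0104 over 11 tests) and 16436 ± 20408 more reads. In E2, cells with a read of Greb1 had 192 ± 166 more genes (7 of 9 libraries, exact permutation test, adjusted p = 0.052). Where cells without an Esr1 read were matched in each library to those with one by reads, so that the groups differed by 3277 reads, the difference in genes was 56.4 ± 143 (11 of 18 libraries, exact permutation test, unadjusted p = 0.112). The splits by other genes and the matching were chosen after the data had been seen.

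**Figure D2:**
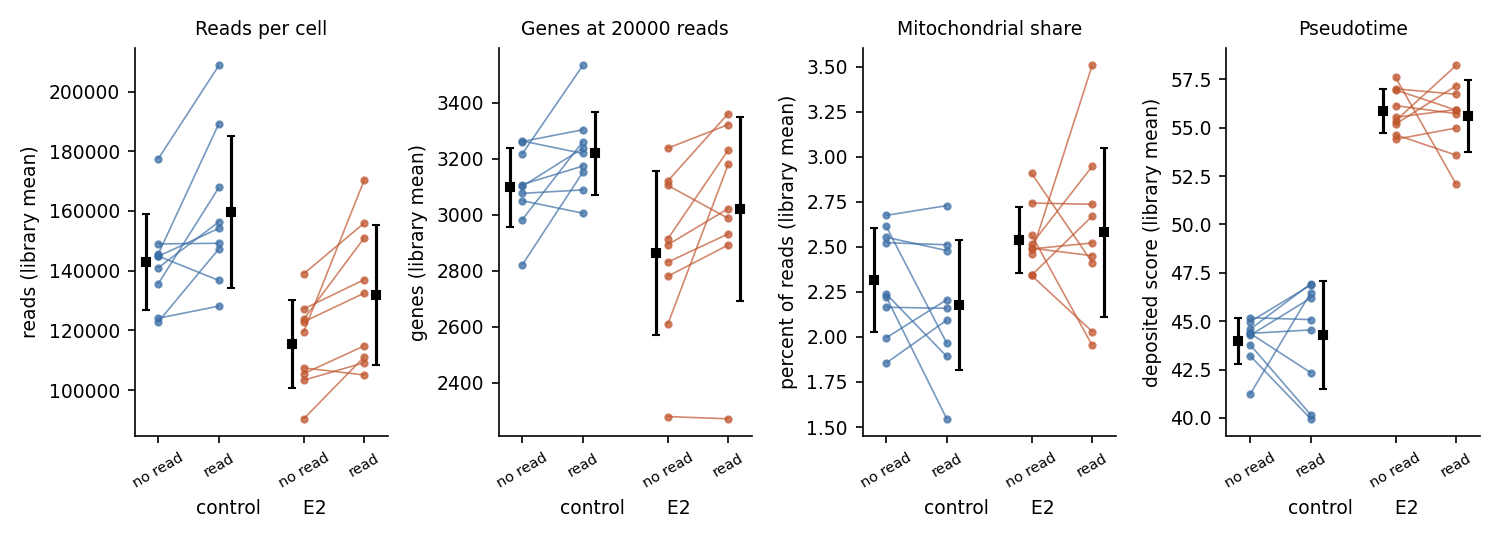
Library means of cells with and without an Esr1 read, joined by a line for each of the 18 libraries (control and E2), for the measures named on the axes. Squares are the mean ± SD over the libraries of a condition. Most lines rise towards the cells with a read for reads per cell (16 of 18) and genes per cell at 20000 reads (14 of 18).

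The scran size factor, a deposited ratio that scales each cell for its RNA content and depth, was higher with a read in 15 of 18 libraries, by 0.14 ± 0.125 (exact permutation test, adjusted p = 0.0042). This measure scales with depth, so like reads per cell it is not independent of how the groups were made. The size factor did not pass with medians over cells (0.127, exact permutation test, adjusted p = 0.064). Nor did it pass with groups set from the thinned reads (0.0714, exact permutation test, adjusted p = 0.57). The percent of reads on mitochondrial genes differed by -0.049 ± 0.432 percentage points over 18 libraries, from -0.678 to 1.04 (exact permutation test, adjusted p = 0.88), and no difference was detectable. Pseudotime, the authors' distance of each cell along an inferred trajectory that starts in the other cluster and divides into a control and an E2 branch, differed by 0.006 ± 2.59 units, with 9 of 18 libraries higher (exact permutation test, adjusted p = 0.99). Library differences in pseudotime ran from -5.52 to 5.25 units. The authors made the trajectory from imputed expression with Esr1 included, so this test is not independent of how the groups were made.

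Cells with and without an Esr1 read mostly carried the same deposited label within a condition. The authors made the clusters from imputed expression with Esr1 included, so these counts are a description. In the division into 3 clusters, all 50 control cells with a read and all 153 without had label 2. All 57 E2 cells with a read and 160 of 161 without had label 3. In the division into 4 clusters, 49 of 50 and 149 of 153 control cells had label 4, and 54 of 57 and 151 of 161 E2 cells had label 3. On the inferred trajectory, 36 of 50 control cells with a read and 107 of 153 without were in state 2, and 38 of 57 and 113 of 161 E2 cells were in state 5. For state 5 the within-library difference was -2.64 ± 14.7 percentage points (5 of 9 libraries higher, exact permutation test, adjusted p = 0.88). None of the 7 state shares tested passed. The states come from the trajectory, so these tests are not independent of how the groups were made either.

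No gene passed the threshold between cells with and without an Esr1 read of the same library. Of 5015 genes tested with edgeR's quasi-likelihood test, with the library as a block, 0 were called in control (0%), 0 in E2 (0%) and 0 in the mean of both (0%) where a call needed an adjusted p below 0.05 together with a log2 fold change of more than 0.5 in size. At an unadjusted p below 0.05 there were 218 genes in control (4.35% of those tested, 29 higher and 189 lower with a read), 229 in E2 (4.57%, 40 higher and 189 lower) and 289 in the mean (5.76%, 21 higher and 268 lower). DESeq2 called 1 gene in control, Irf3, and 0 in E2 and in the mean, with 352, 365 and 430 genes at an unadjusted p below 0.05. limma-voom called Irf3 in control and 0 genes elsewhere, with 228, 290 and 267 genes at that level. The whole distribution was shifted. The median log2 fold change over all genes was -0.15 in control, -0.16 in E2 and -0.17 in the mean, and 71.8% of genes in the mean were below 0. That median was -0.08 with DESeq2's size factors, -0.04 with limma-voom and 0.01 with cells matched by reads. It was -0.42 on deposited counts without thinning, -0.31 at 50000 reads, -0.34 with groups set from the thinned reads and -0.41 without a filter, so small negative values are to be read against this shift.

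The precision of these comparisons was limited. The median standard error (SE) of a log2 fold change in the mean of both conditions was 0.37, and 48.4% of the 5015 genes had a 95% interval within 1 log2 unit of 0 on both sides. For the 2238 genes above 100 CPM the median SE was 0.24 and the corresponding share was 86.5%. A 2-fold difference thus lay outside the interval for most of the abundant genes but not for most of all genes tested.

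**Figure D3:**
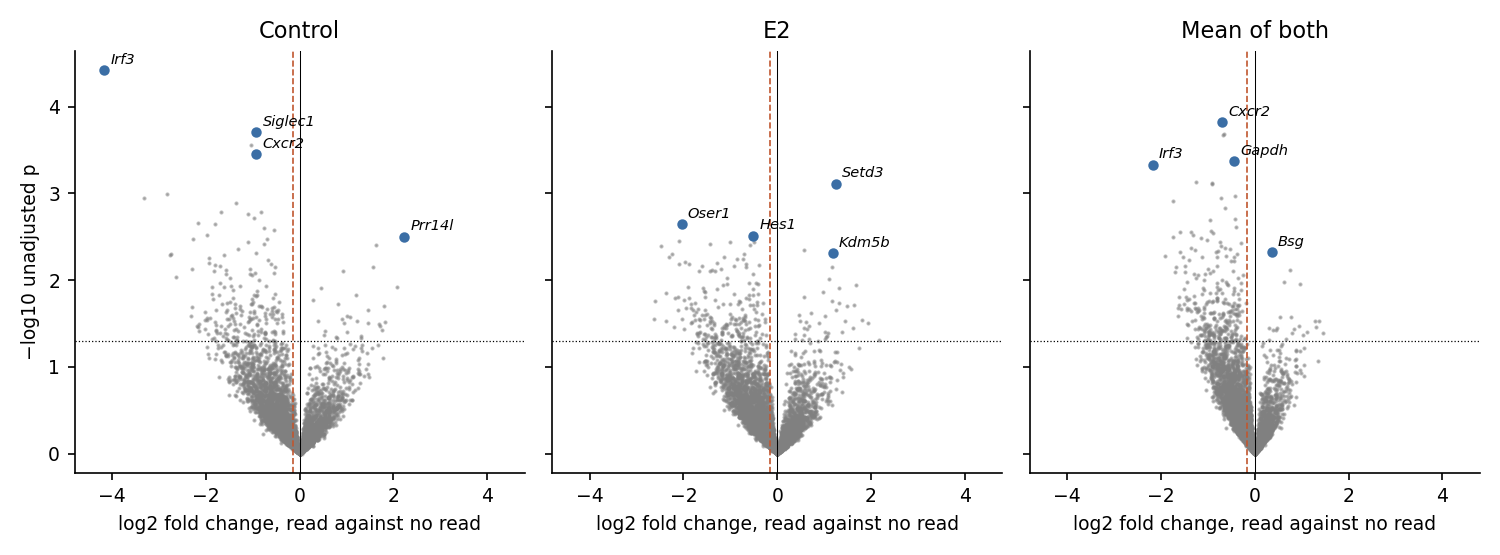
Log2 fold change of cells with against cells without an Esr1 read (x axis) and −log10 of the unadjusted p (y axis) for the 5015 genes tested with edgeR, in control, in E2 and in the mean of both. The dashed line is the median of all genes (-0.15, -0.16 and -0.17) and the dotted line marks p = 0.05. The cloud lies left of 0 in each panel, and no point passes after adjustment.

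The genes with the lowest p in control were Irf3, Siglec1, a gene without a symbol (ENSMUSG00000093760) and Cxcr2. Irf3, a transcription factor of the interferon response (chromosome 7, 44997648 to 45002848), gave 0 CPM in 7 of 9 control libraries with a read and at most 32.0 CPM. Without a read it was 18.5 to 115 CPM (median 80.1). It was lower with a read in 9 of 9 libraries, although the ranges overlapped. The log2 fold change was -4.18 (SE 0.91, 95% interval -6.00 to -2.35, edgeR adjusted p = 0.19). The value with a read rested on 4 reads in 2 of 50 cells, of which 3 were in 1 cell. In such sums fewer cells with a transcript and less RNA per cell cannot be told apart. In E2, Irf3 was at 0 to 109 CPM (median 44.7) with a read and at 11.4 to 97.9 CPM (median 49.5) without, a log2 fold change of -0.18 (SE 0.68). Its adjusted p in control depended on the tool and setting. It was 0.0076 with DESeq2, 0.028 with limma-voom, 0.023 without a filter on low counts and 0.024 without control replicate 9, and over all alternatives it ran from 0.0076 to 0.99.

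Siglec1, a sialic acid-binding receptor best known from macrophages, stood at 102 to 456 CPM (median 237) in control cells with a read and at 370 to 505 CPM (median 441) without. It was lower with a read in 8 of 9 control libraries (log2 fold change -0.92, SE 0.23, edgeR adjusted p = 0.44) and in 8 of 9 E2 libraries (-0.37, SE 0.22). Cxcr2, a chemokine receptor gene, stood at 51.1 to 575 CPM (median 231) with a read and at 285 to 666 CPM (median 479) without in control. In E2 it was at 25.4 to 629 CPM (median 385) with a read and at 51.1 to 799 CPM (median 518) without. It was lower in 16 of 18 libraries, with the lowest p in the mean of both conditions (-0.70, SE 0.17, 95% interval -1.03 to -0.36, edgeR adjusted p = 0.36). The groups overlapped in both conditions for Siglec1 and Cxcr2.

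ENSMUSG00000093760 stood at 34.1 to 334 CPM (median 235) in control cells with a read and at 325 to 654 CPM (median 380) without. It was lower with a read in 9 of 9 control libraries (log2 fold change -1.04, SE 0.26, 95% interval -1.57 to -0.51, edgeR adjusted p = 0.44) and in 6 of 9 E2 libraries (-0.21, SE 0.26). The ranges overlapped slightly in control and widely in E2. Where the groups were set from the thinned reads it was called as lower with a read, in control (-1.92, edgeR adjusted p = 0.016) and in the mean of both (edgeR adjusted p = 0.041), and over all alternatives its adjusted p in control ran from 0.016 to 1.0.

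Gapdh, a glycolytic enzyme gene often used as a reference, was lower with a read in 15 of 18 libraries. It stood at 563 to 1459 CPM (median 791) with and 825 to 1330 CPM (median 1129) without a read in control, and at 280 to 1361 CPM (median 874) and 852 to 1362 CPM (median 1077) in E2. The mean log2 fold change was -0.43 (SE 0.11, 95% interval -0.66 to -0.20, edgeR adjusted p = 0.47). Kctd3 showed -0.67 (SE 0.16, edgeR adjusted p = 0.36), lower in 13 of 18 libraries. The highest-ranked genes in the other direction were Bsg, which encodes the glycoprotein basigin (0.36, SE 0.12, edgeR adjusted p = 0.67), and the calcium-binding protein gene S100a16 (0.75, SE 0.27, edgeR adjusted p = 0.76). None of these 4 genes passed the threshold. Without a filter on low counts 11 genes were called in the mean of both, all lower with a read, among them Cxcr2, Siglec1, Kctd3, Gapdh, Irf3 and the chemokine gene Ccl2.

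In E2 the lowest p was that of Setd3, an actin histidine methyltransferase gene (chromosome 12, 108106431 to 108179314). It stood at 121 to 421 CPM (median 245) with a read and at 48.3 to 174 CPM (median 114) without, and was higher with a read in 8 of 9 libraries. The log2 fold change was 1.25 (SE 0.34, 95% interval 0.55 to 1.94, edgeR adjusted p = 0.99). In control it was -0.45 (SE 0.36), with 26.3 to 147 CPM (median 98.2) against 87.5 to 194 CPM (median 137). Hes1, a transcriptional repressor downstream of Notch, went the other way in E2, with 76.3 to 1498 CPM (median 862) with a read and 219 to 1416 CPM (median 1249) without (-0.51, SE 0.16, lower in 7 of 9 libraries, edgeR adjusted p = 0.99). In control Hes1 was higher with a read in 6 of 9 libraries (0.29, SE 0.16). The ranges overlapped for both genes in both conditions.

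The difference of the Esr1 comparison between E2 and control was tested as an interaction, and 0 of 5015 genes were called by edgeR, DESeq2 or limma-voom (0%). At an unadjusted p below 0.05, edgeR gave 165 genes (3.29%, 92 higher and 73 lower), DESeq2 332 and limma-voom 247. The lowest p were those of Hes1 (-0.80, SE 0.23), Setd3 (1.69, SE 0.49), Irf3 (3.99, SE 1.16) and the sphingolipid desaturase gene Degs1 (1.01, SE 0.30), each with an edgeR adjusted p of 0.999. Control and E2 libraries are separate, but both sets of p came from 1 fit that shares its estimate of the spread of each gene. The 2 sets of genes at p below 0.05 are thus not independent, and their overlap is a description. There were 8 that went the same way in both conditions (3.67% of the control genes and 3.49% of the E2 genes) and 1 that went opposite ways. All 8 were lower with a read, namely Aldh1a3, Bloc1s1, Cyp51, Gapdh, Igf2, Kctd3, Rbm5 and Sltm. They made up 4.23% of the control genes that were lower at this level, where 3.77% of all genes tested in E2 were lower at this level.

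Among genes tied to estrogen receptor action none was called, as for all 5015 genes (0%), and not all of them passed the filter on low counts. Of 33 coregulators and pioneer factors of the receptor, 29 were in the table and 19 were tested, and 0 were called in either condition. Their median log2 fold change in the mean of both was -0.15 beside -0.17 over all genes, from -0.74 to 0.18. At an unadjusted p below 0.05 there was only the corepressor gene Tle3 in E2 (-1.35, SE 0.61, edgeR adjusted p = 0.99). Of 30 genes that estradiol induces in breast cancer cells, 8 were tested and 0 were called, with a median of 0.01. Among them the lysosomal protease gene Ctsd had 0.13 (SE 0.14, 95% interval -0.16 to 0.42), the secretory-pathway factor gene Xbp1 -0.04 (SE 0.26, -0.57 to 0.49) and the IGF-binding protein gene Igfbp4 -0.02 (SE 0.09, -0.20 to 0.17).

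Steroid receptors other than Esr1 and Nr3c1 were sparse or absent from the counts, whereas Nr3c1 had a read in 183 of 421 responsive cells. Of 9 receptor genes 3 were in the table, and only Nr3c1 passed the filter. Nr3c1 stood at 0 to 129 CPM (median 64.1) with and 27.5 to 151 CPM (median 40) without an Esr1 read in control, and at 0 to 97.6 CPM (median 39.1) and 47.0 to 133 CPM (median 74.9) in E2. The log2 fold changes were 0.03 (SE 0.58) and -0.92 (SE 0.56), and both intervals included 0. Esr2, the gene of receptor beta, had a read in 2 of 50 control cells with an Esr1 read (4.0%, exact binomial 95% interval 0.49 to 13.7) and in 17 of 153 without (11.1%, 6.61 to 17.2). The mean difference within libraries was -9.66 ± 9.55 percentage points (exact sign-flip permutation test, unadjusted p = 0.027, n = 9). At 20000 reads, however, the Esr2 shares were 2.0% and 3.27% (exact permutation test, unadjusted p = 0.44), and in E2 3.51% against 6.21% before thinning.

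Greb1, the classical receptor target (chromosome 12, 16670615 to 16800886), was read almost only in E2 cells. In control it had a read in 0 of 50 cells with an Esr1 read, for which the exact binomial 95% interval reached 7.11%, while the limit of 3 counts allows a share of up to 6.0%, and in 1 of 153 without. In E2 it had a read in 17 of 57 cells with an Esr1 read (29.8%, exact binomial 95% interval 18.4 to 43.4) and in 30 of 161 without (18.6%, 12.9 to 25.5). The share was higher with an Esr1 read in 5 of 9 libraries, by 7.42 ± 20.7 percentage points (exact permutation test, unadjusted p = 0.33). At 20000 reads the shares were 21.1% and 13% (exact permutation test, unadjusted p = 0.50). Greb1 stood at 0 to 114 CPM (median 39.1) with an Esr1 read and at 0 to 79.9 CPM (median 39.8) without. A difference of Greb1 between the groups was not detectable with these cell numbers.

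No OSE identity gene was called between the groups. All 8 tested OSE and mesothelial markers had a negative mean log2 fold change, with a median of -0.15 beside -0.17 for all genes. Krt7 was at 862 to 1679 CPM with and 815 to 1726 CPM without an Esr1 read in control (mean of both conditions -0.05, SE 0.13, 95% interval -0.32 to 0.22). Upk3b showed -0.09 (SE 0.09, -0.27 to 0.09) and Krt19 -0.19 (SE 0.16, -0.51 to 0.12). The summed level of the 10 OSE markers in the table was 3100 to 6335 CPM with and 5136 to 6708 CPM without a read in control, and 4270 to 7903 CPM and 4285 to 6640 CPM in E2. The 11 fibroblast-like markers summed to 1847 to 2658 CPM and 1853 to 2525 CPM in control and to 1241 to 2430 CPM and 1698 to 4685 CPM in E2, with 1 of the 11 at 0 in E2 cells with a read. Both sums overlapped between the groups.

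The other cell types that the culture could hold were low or rested on single genes. The 2 granulosa and theca markers in the table summed to 0 to 383 CPM with and 4.01 to 78.9 CPM without a read in control, and to 3.31 to 190 CPM and 11.5 to 148 CPM in E2. Of these Star, a steroidogenic transport protein gene, was tested, with 0.64 (SE 0.83) in control and -1.72 (SE 0.86, edgeR adjusted p = 0.99) in E2. The 2 endothelial markers summed to 375 to 721 CPM and 403 to 753 CPM in control, and to 410 to 709 CPM and 419 to 639 CPM in E2. The 3 leukocyte markers summed to 30.3 to 249 CPM and 28.1 to 84.1 CPM in control and to 0 to 117 CPM and 24.5 to 92.5 CPM in E2, with 1 of the 3 at 0 in cells with a read of either condition. The 2 muscle and pericyte markers had medians of 0.66 CPM with and 0.491 CPM without a read in control, and of 0 and 0.449 CPM in E2. Their part in the gene comparison was not tested.

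Of 81 ribosomal protein genes tested, 0 were called, and the median in the mean of both conditions was -0.07. In E2, 69 of the 81 were below 0 (median -0.12), and in control 38 of 81 (median 0.01). Of all genes tested, 66.5% were below 0 in E2 and 65.2% in control. Of 84 nuclear respiratory chain and ATP synthase genes, 67 were below 0 in the mean (median -0.12) and 0 were called, and of 13 mitochondrially encoded transcripts 12 were below 0 (median -0.09). These medians lie above that of all genes. Among 15 immediate early genes (median 0.02), 9 cell cycle genes (median -0.37) and 14 heat shock protein genes (median -0.11), again 0 were called. The lowest cell cycle value was that of the tubulin-binding protein gene Stmn1 (-1.26, SE 0.46, edgeR adjusted p = 0.79).

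The change with E2 was then fitted separately in cells with and without an Esr1 read. The 2 fits share 18 libraries and are not independent of each other, so their values are given side by side. The fit without a read also held control column 1 (19 libraries), while the CPM ranges printed beside it leave that column out. In cells with a read, 18 of 1742 genes tested were called by edgeR (1.03%, 11 or 0.631% higher and 7 or 0.402% lower with E2), and 170 had an unadjusted p below 0.05. In cells without a read, 88 of 5179 were called (1.7%, 49 or 0.946% higher and 39 or 0.753% lower), and 548 had an unadjusted p below 0.05. The sums without a read held about 3 times as many cells, and when they were matched to the cells with a read in number and in reads, 28 of 1784 genes were called (1.57%, 19 or 1.07% higher and 9 or 0.504% lower). Without E2 replicate 15 the counts were 21 with a read and 114 without. DESeq2 called 29 and 141 genes, limma-voom 18 and 84, and where the groups were set from the thinned reads, which left fewer cells with a read, edgeR called 3 in cells with a read.

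Igfbp5, which encodes an insulin-like growth factor binding protein, had the largest called rise with E2 in cells with an Esr1 read. In those cells it stood at 65.7 to 333 CPM (median 175) in control and at 492 to 2671 CPM (median 1191) in E2. In cells without a read it stood at 44.7 to 337 CPM (median 152) and 569 to 2090 CPM (median 1131). No control library overlapped an E2 library in either group. The log2 fold change was 2.87 (SE 0.32, edgeR adjusted p = 4.08e-07) with a read and 2.78 (SE 0.26, edgeR adjusted p = 3.06e-09) without. The difference between the groups, taken from the interaction of the within-library fit, was -0.19 on the log2 scale (SE 0.38, 95% interval -0.95 to 0.57).

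Lpl, lipoprotein lipase, stood at 78.9 to 446 CPM (median 307) in control and 930 to 1485 CPM (median 1277) in E2 with an Esr1 read. Without a read it was at 160 to 470 CPM (median 380) and 890 to 1781 CPM (median 1164), and again no libraries of the 2 conditions overlapped. The change was 2.02 (SE 0.22, edgeR adjusted p = 4.08e-07) and 1.87 (SE 0.18, edgeR adjusted p = 4.39e-09), with a difference of 0.19 (SE 0.26, -0.33 to 0.71). Psap, which encodes the precursor of the saposins of lysosomal lipid breakdown, fell. It stood at 2125 to 8915 CPM (median 3023) in control and 102 to 1986 CPM (median 1380) in E2 with a read, and at 2470 to 4526 CPM (median 3238) and 346 to 1785 CPM (median 1305) without. The change was -1.67 (SE 0.31, edgeR adjusted p = 0.0026) and -1.34 (SE 0.18, edgeR adjusted p = 6.68e-06).

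**Figure D4:**
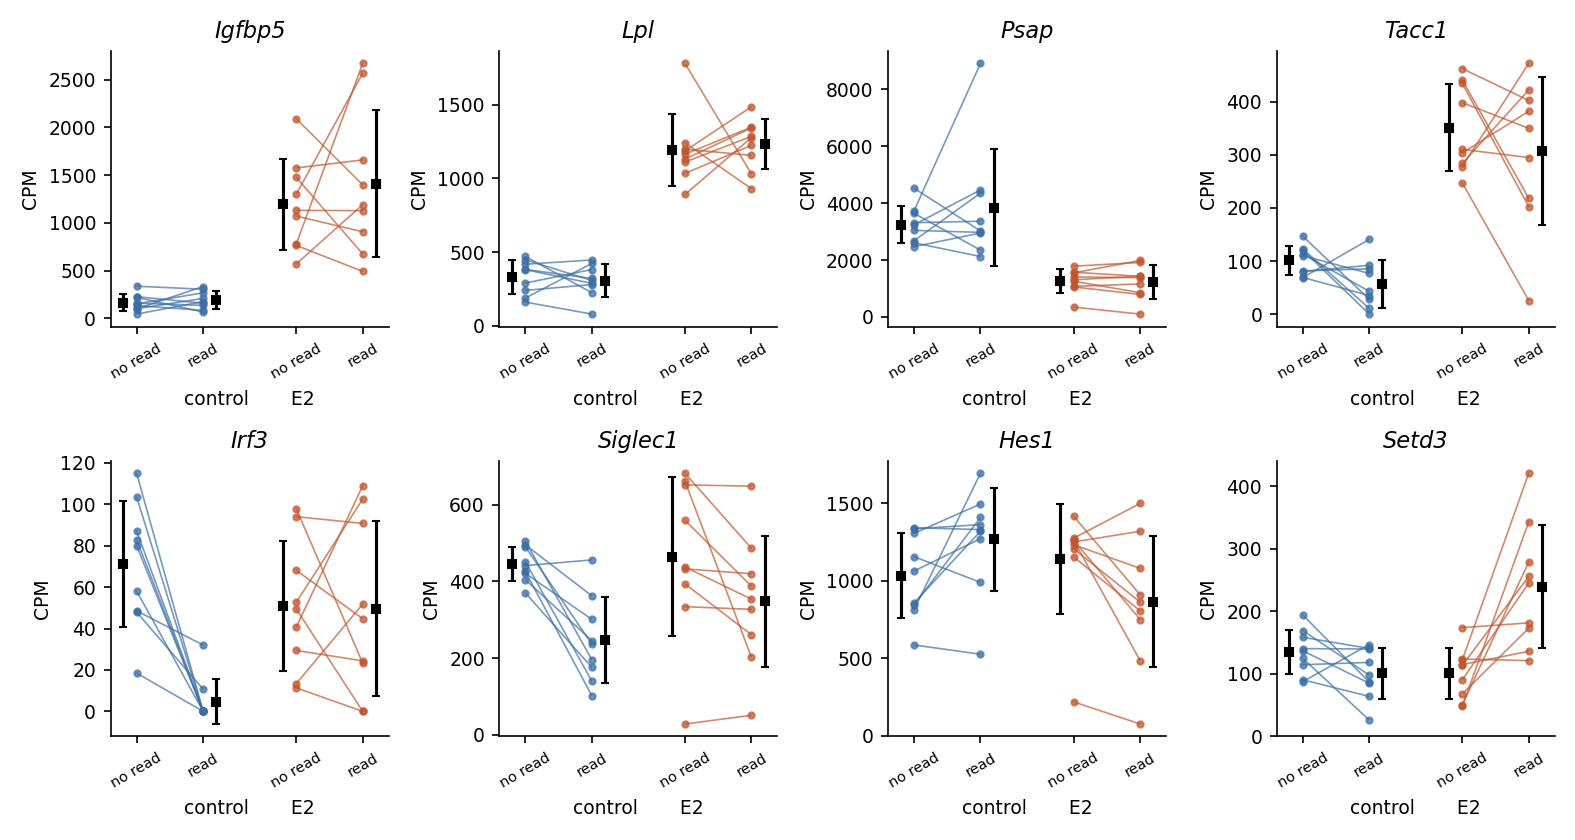
CPM by library, at 20000 reads per cell, for Igfbp5, Lpl, Psap, Tacc1, Irf3, Siglec1, Hes1 and Setd3 in cells with and without an Esr1 read, control and E2 (9 libraries each). Squares are the mean ± SD. Igfbp5 and Lpl are higher and Psap lower in every E2 library than in any control library in both groups of cells, while the groups with and without a read overlap in every panel.

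The remaining 15 genes called in cells with a read went the same way in cells without one, where all 15 were called as well. All 18 were chosen by their call in cells with a read, which favours larger values there. A larger change with a read than without is therefore not a sign of a stronger response. The lysosomal protease gene Ctsh rose by 2.58 (SE 0.39) with and 2.22 (SE 0.21) without a read, and the dynein adaptor gene Bicd1 by 2.52 (SE 0.48) and 1.56 (SE 0.27). Tacc1, a centrosomal coiled-coil protein gene, rose by 2.50 (SE 0.49) and 1.72 (SE 0.20). The rises of Creg1, Idh1, Cd55, Rars, Atp6v1b2 and Lgals1 lay between 0.97 and 1.33 with a read and between 0.97 and 1.46 without. Among the genes lower with E2, the complement protease gene C1s1 had -1.39 and -0.98, the matrix protein gene Efemp2 -1.38 and -0.90, the complement gene C3 -1.22 and -0.85, the transferrin gene Trf -1.22 and -1.20, the tetraspanin gene Cd63 -1.20 and -0.69, and the metalloproteinase inhibitor gene Timp2 -1.02 and -1.04. With a read, the calls of Atp6v1b2, C3 and Efemp2 held in 7, 6 and 11 of 18 fits that left out 1 library. When the cells without a read were matched by reads, 4 of the 15 were not called there, namely Efemp2 (0.0034, edgeR adjusted p = 1.0), C1s1 (-0.62, edgeR adjusted p = 0.59), C3 (-0.71, edgeR adjusted p = 0.11) and Atp6v1b2 (1.11, edgeR adjusted p = 0.079).

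None of these 18 genes differed in its E2 change between cells with and without a read after adjustment (edgeR adjusted p = 0.999 for each). The intervals were wide for several of them. For Bicd1 the difference was 0.90 (SE 0.54, 95% interval -0.19 to 2.00), for Tacc1 0.71 (SE 0.54, -0.38 to 1.80) and for Ctsh 0.47 (SE 0.44, -0.41 to 1.35). Cd63 had the lowest unadjusted p among them, with -0.49 (SE 0.22, -0.93 to -0.06). It stood at 954 to 2097 CPM in control and 236 to 865 CPM in E2 with a read, which did not overlap. Without a read it stood at 1144 to 1554 CPM and 616 to 1244 CPM. That overlap came from E2 replicate 15 alone (1244 CPM), as the next highest E2 library was at 840 CPM.

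**Figure D5:**
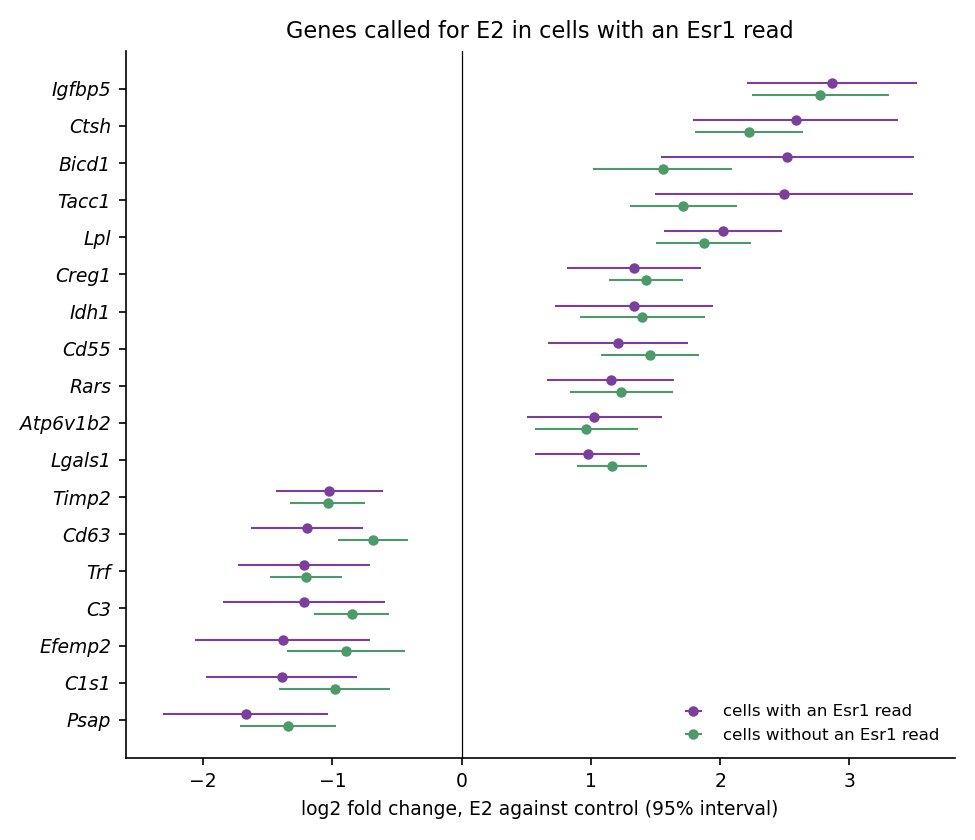
Log2 fold change of E2 against control with its 95% interval for the 18 genes called in cells with an Esr1 read, in those cells and in cells without a read of the same libraries. The 11 risen and 7 fallen genes have the same sign in both groups, and the intervals overlap.

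Outside these 18 genes, Fos and Gja1 had the lowest unadjusted p for this difference among the genes that the study's text names for their change with E2. Fos, a subunit of AP-1, stood at 648 to 2644 CPM (median 1503) in control and 556 to 2575 CPM (median 1944) in E2 with a read, and at 700 to 1477 CPM (median 1101) and 1388 to 3419 CPM (median 1812) without. It rose with E2 in cells without a read (0.82, SE 0.17, edgeR adjusted p = 0.0027), whereas in cells with a read the change was 0.09 (SE 0.26, edgeR adjusted p = 0.94). The difference between the groups, -0.75 (SE 0.29, 95% interval -1.33 to -0.16), had an unadjusted p of 0.013 and an edgeR adjusted p of 0.999, so a different response was not shown. For the gap junction gene Gja1 the changes were 1.05 (SE 0.33) with and 0.43 (SE 0.19) without a read, with a difference of 0.77 (SE 0.38, -0.0023 to 1.54, edgeR adjusted p = 0.999).

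The genes named in the study's text for their change with E2 were chosen on these same cells and are not independent evidence of direction. Of 20 named as higher, 13 were tested in cells with a read, where all 13 were above 0 (median 0.98) and 4 were called. In cells without a read 18 were tested, 17 were above 0 (median 0.86) and 8 were called. Of all genes tested, 0.631% were called as higher with a read and 0.946% without, with a median of 0.01 in either. Within libraries the same list had a median of -0.19 between cells with and without a read, beside -0.17 for all genes, with 0 called. Of 12 named as higher in control, 8 were tested with a read, all below 0 (median -0.63), and 0 were called. Without a read 11 were tested, all below 0 (median -0.71), and 2 were called. Of all genes tested, 0.402% were called as lower with a read and 0.753% without. Enpp2, which encodes autotaxin, the enzyme that makes lysophosphatidic acid, was too sparse to be tested in cells with a read. It stood at 0 to 406 CPM (median 7.01) in control and 0 to 860 CPM (median 374) in E2 in these cells, and at 0 to 116 CPM (median 0) and 130 to 1059 CPM (median 363) in cells without (log2 fold change 3.91, SE 0.55, edgeR adjusted p = 1.02e-05).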

How the data were processed

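Estimated counts per gene and cell, not normalized, were deposited by the authors after their own filters; per the labels and methods, reads were quantified with kallisto (0.44.0, with GRCm38, per the submitters' processing notes) and summed to genes with tximport. Of the values above 0, 66.9% were whole (tolerance 1e-09), and counts were rounded. The methods name no molecular identifiers, and the values are counts of reads. Intervals of log2 fold changes rest on the spread between library sums, and exact binomial intervals take each cell as 1 observation. The authors also deposited imputed expression on a log2 scale (the base is not stated and was taken from the values), made by scran scaling and MAGIC, the percent of mitochondrial reads, the scran size factor (a ratio near 1), a monocle pseudotime score with states, and SC3 cluster labels. Symbols were taken from GENCODE M21 (14135 of 14299 genes).

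Each cell was thinned to 20000 reads, and cells were summed by library and Esr1 read (at least 3 cells). The quasi-likelihood test of edgeR 4.0.16 (R 4.3.3) followed TMM scaling and filterByExpr. Within libraries, the library was a block, which pairs sums of the same column. A call needed a Benjamini-Hochberg adjusted p below 0.05 together with a log2 fold change of more than 0.5 in size. Standard errors were taken from the F statistic. Alternatives included DESeq2 1.42.0 and limma 3.58.1 (voom). Single measures per library were tested by exact sign-flip permutation. Of these steps only the within-library edgeR fit was tested on simulated data, with counts drawn from its own fitted values. Genes named were steroid receptors, genes in the study's text, the 5 of lowest p in each direction within libraries, and the members of highest level of each list, of which a selection is printed; the other genes called with E2, and Degs1, Stmn1 and Tle3 where they stand outside this rule, were named after their values were seen. The members and lists were chosen with earlier results of these data known.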

Additional observations from a re-analysis of the deposited data

Results flagged for a closer look

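In each condition the highest and the lowest of 9 libraries were checked for standing apart from the rest of their group (gap to the nearest library divided by the range, Dixon's 95% critical value 0.493). Of 132 groups of values checked, 18 (13.6%) held such a library, where chance alone gives about 1 in 20, and 9 of the 18 were E2 replicate 15.

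In E2 replicate 15, cells without an Esr1 read stood at 1781 CPM for Lpl, 1244 CPM for Cd63, 3419 CPM for Fos and 721 CPM for Gja1, above the other E2 libraries, and at 346 CPM for Psap and 219 CPM for Hes1, below them. Cells with a read had 2271 genes at 20000 reads in this library, the fewest of E2, and 25.4 CPM of ENSMUSG00000093760, and their pseudotime differed by -5.52 units from that of the cells without. Among control libraries, replicate 5 had the deepest cells without a read (177482 reads per cell) and the highest size factors (1.88 with and 1.57 without a read). Control replicate 6 had the lowest pseudotime in cells without a read (41.2 units). In cells with a read, Psap was at 8915 CPM in control replicate 7, Irf3 at 32.0 CPM in control replicate 9 and Enpp2 at 406 CPM in control replicate 10. In cells without a read, C3 was at 1644 CPM in E2 replicate 20 and ENSMUSG00000093760 at 654 CPM in control replicate 10. The cause of these values was not tested.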

How the results depend on the processing

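The within-library comparison called 0 genes under most settings. In control, 1 gene was called in each of 4 settings, Irf3 without a filter on low counts, with DESeq2 and with limma-voom, and ENSMUSG00000093760 with groups set from the thinned reads, and leaving out 1 library gave 0 to 1. In the mean of both conditions, 1 gene, again ENSMUSG00000093760, was called with groups set from the thinned reads and 11 without a filter. The library served as replicate block throughout, since both sums of a library share a column, and without the block 1 gene (Irf3) was called in control and 0 elsewhere. For E2 against control in cells with a read, 3 genes were called with groups set from the thinned reads, 36 without a filter and 29 with DESeq2 (14 to 21 when leaving out 1 library). In cells without a read, 141 were called with DESeq2 and 28 in cells matched by reads, an alternative chosen after seeing the data (73 to 114 when leaving out 1 library). There Efemp2 changed sign (0.0034, edgeR adjusted p = 1.0). The causes were not tested. Of 1909 alternative values for single genes within libraries, 1897 stayed on the same side of the threshold and 12 gained a call, and of 1039 for the change with E2, 52 lost and 13 gained one.

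For values per library, medians in place of means gave 127.5 genes at 20000 reads in control, which then passed, and 332.5 genes on deposited counts in E2 and size factors of 0.139 in control and 0.127 over both, which did not. With sums of at least 1 cell the reads per cell in control differed by 15697 and passed. With groups set from the thinned reads, the calls were lost for reads per cell (4711 in E2, 6092 over both), genes at 20000 reads (67.9 over both), genes on deposited counts (97.0, 173 and 132) and size factor (0.0982 in control, 0.0714 over both). With at least 2 Esr1 reads, reads per cell (22233) and genes at 20000 reads (155) in control and size factor in E2 (0.161) passed. Leaving out 1 library gave 13602 to 20083 reads in control and 12176 to 18830 in E2, 108 to 194 genes at 20000 reads and 283 to 453 on deposited counts in E2, and size factors of 0.124 to 0.176 in control and 0.121 to 0.163 in E2.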
